A study of Homo sapiens with 12 samples.

Results

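KG1a, an established cell line derived from a human acute myeloid leukaemia, keeps an immature, CD34-positive surface. The comparison described here set the CD34-positive KG1a cells that were bright for CD38 and CLL-1 against those that were dim for both, in normoxia. It used 6 of the 12 RNA sequencing libraries of the series, 3 of the normoxic bright and 3 of the normoxic dim subset, chosen by their labels. Both subsets carried the cell line label WT and were grown in RPMI medium with serum, and the other 6 libraries held the same subsets at 3% oxygen. All 12 libraries carried the same batch date. Genes were tested where the normalized count reached 10 in at least 3 of the 12 libraries, which kept 15057 of 28395 genes. Whether replicates came from separate cultures is not in the labels, and p-values therefore cover only the spread among these libraries, which may be technical.

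CD34 is a glycoprotein of haematopoietic stem and progenitor cells, and CD38 is a surface enzyme that consumes NAD and appears as such progenitors mature. CLL-1, encoded by CLEC12A, is an inhibitory lectin receptor of myeloid cells. In acute myeloid leukaemia the CD34-positive, CD38-low compartment is the one classically associated with leukaemia stem cell activity, while lymphoid gene expression is a known feature of some immature leukaemias.

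Of the gene lists described here, bright cells were lower in 19 of 42 tested T and NK cell genes, 24 of 54 interferon response genes and 20 of 50 genes of DNA replication, and higher in 17 of 52 mitosis genes. Single genes higher in bright cells included the platelet integrin chain ITGA2B and the transcription factor GATA2. After Benjamini-Hochberg adjustment over all genes tested, 433 genes were higher in bright cells (2.88% of those tested) and 570 were lower (3.79%), 1003 in all (6.66%), at an adjusted p under 0.05 (limma, 2-sided). The median fold was 1.46 among the higher genes and 1.69 among the lower ones, and 105 higher and 196 lower genes differed at least 2-fold. Groups that did not overlap were common in general, at 3576 genes or 23.7% of those tested. Of the lower genes 569 had non-overlapping groups, as had 432 of the higher ones. The libraries held an estimated 27100000 to 39500000 reads each, and their normalized counts summed to between 31828256 and 32560463. In bulk RNA, fewer cells of a type and less RNA per cell cannot be told apart.

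**Figure D1:**
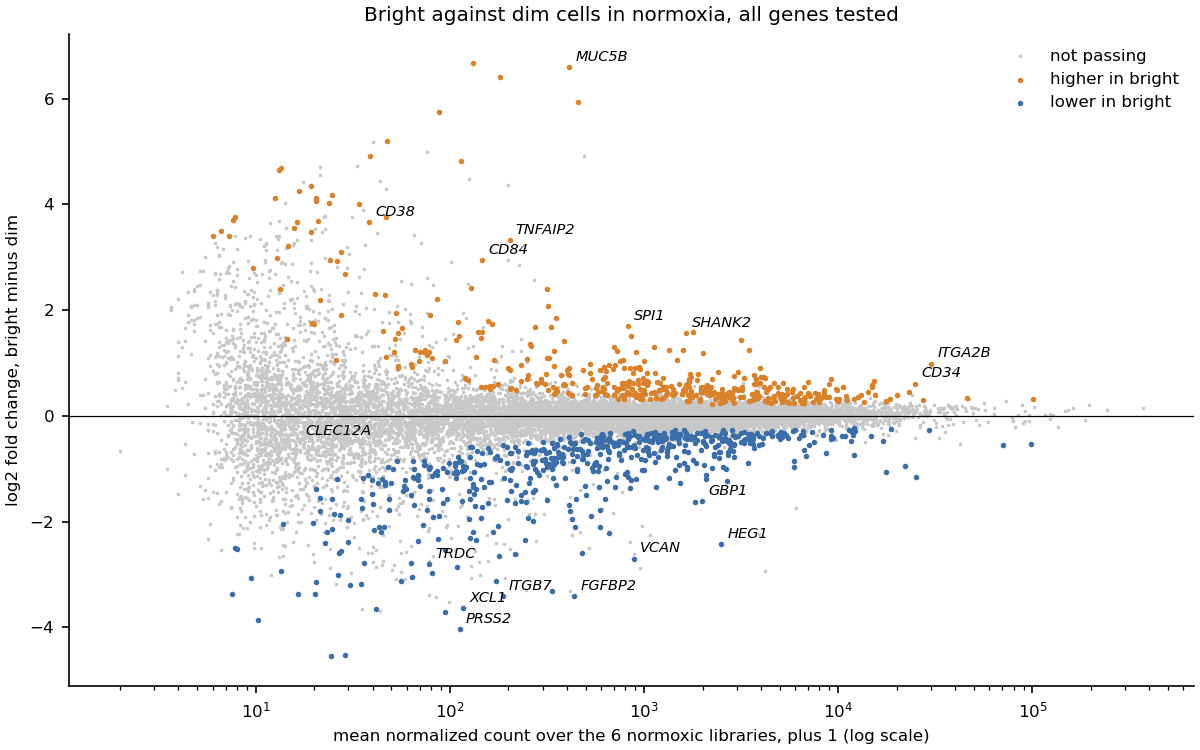
Each point is 1 of 15057 genes. The horizontal axis is the mean normalized count over the 6 normoxic libraries plus 1 on a log scale, and the vertical axis is the fitted log2 fold change, bright minus dim. Orange genes (433) were higher and blue genes (570) lower in bright cells, and grey genes did not pass.

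The upstream sequences of 6 genes are shown because the groups they stand for, interferon response, DNA replication and mitosis, each had members that passed the test in a single direction. Each is the 250 bases before the start that RefSeq lists for the gene, read 5′ to 3′ on the gene's own strand from RefSeq (GRCh38.p14). In the interferon-induced genes GBP1 (chr1:89065209-89065458, minus strand) and EPSTI1 (chr13:42992242-42992491, minus strand), capitals mark the letters GAAANNGAAA on either strand, the core of the interferon-stimulated response element.
GBP1: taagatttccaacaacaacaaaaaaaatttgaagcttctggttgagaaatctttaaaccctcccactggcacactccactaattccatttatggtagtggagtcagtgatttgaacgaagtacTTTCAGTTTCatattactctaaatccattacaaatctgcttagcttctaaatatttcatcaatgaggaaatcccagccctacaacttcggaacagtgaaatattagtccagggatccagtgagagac
EPSTI1: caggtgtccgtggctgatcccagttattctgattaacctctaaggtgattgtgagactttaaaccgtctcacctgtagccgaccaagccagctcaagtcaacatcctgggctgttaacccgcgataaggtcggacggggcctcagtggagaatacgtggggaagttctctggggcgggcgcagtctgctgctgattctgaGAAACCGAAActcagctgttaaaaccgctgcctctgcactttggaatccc
In the replication genes MCM6 (chr2:135876444-135876693, minus strand) and GINS2 (chr16:85688955-85689204, minus strand), capitals mark TTTCCCGC or TTTGGCGC on either strand, letters typical of E2F sites.
MCM6: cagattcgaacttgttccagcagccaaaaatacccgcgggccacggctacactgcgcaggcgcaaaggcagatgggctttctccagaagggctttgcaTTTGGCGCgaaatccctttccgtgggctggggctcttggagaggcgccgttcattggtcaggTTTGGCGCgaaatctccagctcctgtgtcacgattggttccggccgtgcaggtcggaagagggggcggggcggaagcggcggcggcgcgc
GINS2: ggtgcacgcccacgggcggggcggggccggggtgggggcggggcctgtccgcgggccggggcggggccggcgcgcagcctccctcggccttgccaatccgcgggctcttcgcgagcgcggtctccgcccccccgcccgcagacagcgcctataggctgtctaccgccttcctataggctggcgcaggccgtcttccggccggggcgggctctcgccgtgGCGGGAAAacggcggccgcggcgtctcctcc
In the mitosis genes CCNB2 (chr15:59104896-59105145, plus strand) and PLK1 (chr16:23678639-23678888, plus strand), capitals mark TTTGAA, the core of the cell cycle homology region, and CCAAT boxes, each on either strand.
CCNB2: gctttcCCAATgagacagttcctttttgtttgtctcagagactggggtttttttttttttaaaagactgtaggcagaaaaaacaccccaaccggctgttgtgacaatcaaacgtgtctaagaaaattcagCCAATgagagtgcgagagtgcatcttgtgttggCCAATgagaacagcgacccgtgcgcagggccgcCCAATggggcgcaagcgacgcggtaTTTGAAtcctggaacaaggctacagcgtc
PLK1: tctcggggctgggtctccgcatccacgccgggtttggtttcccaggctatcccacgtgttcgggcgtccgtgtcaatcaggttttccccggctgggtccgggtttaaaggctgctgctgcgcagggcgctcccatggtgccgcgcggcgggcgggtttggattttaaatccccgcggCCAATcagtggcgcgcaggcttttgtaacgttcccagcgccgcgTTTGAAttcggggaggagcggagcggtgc
The match lay 127 bases before the start in GBP1 and 50 bases before it in EPSTI1. MCM6 had 2 matches, 152 and 90 bases before the start, and GINS2 had 1, in reverse, 31 bases before it. TTTGAA stood 29 bases before the start in CCNB2 as in PLK1, downstream of 4 CCAAT boxes in CCNB2 and of 1 in PLK1. The 6 genes were chosen individually, and each holds the letters marked in it, which some passing members of each group lack. How often these letters occurred in each gene group is given with the group's values.

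CD38 had normalized counts of 6, 7 and 2 in the dim libraries and 67, 82 and 60 in the bright libraries. Every bright value lay far above every dim one, and the log2 fold change, bright minus dim, was 3.67 ± 0.42 (SE, here and below; adjusted p = 0.000118). CD38 lies on chromosome 4, 15778298 to 15849083 (hg38, as are all gene positions here). CD34 (chromosome 1, 207881028 to 207911338) stood at 18117, 20882 and 20265 in dim and at 32370, 28691 and 29579 in bright cells. It was abundant in all 6 libraries and 1.53-fold higher in bright cells (0.61 ± 0.08, adjusted p = 0.000218). CLEC12A (chromosome 12, 9951316 to 9999354) gave 27, 13 and 15 in dim and 9, 9 and 22 in bright cells. These few counts overlapped between the groups, and the log2 difference of -0.48 ± 0.58 did not pass (adjusted p = 0.722). The CD38 transcript thus differed in the direction of the labels, whereas for CLEC12A no difference was detectable at this depth.

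**Figure D2:**
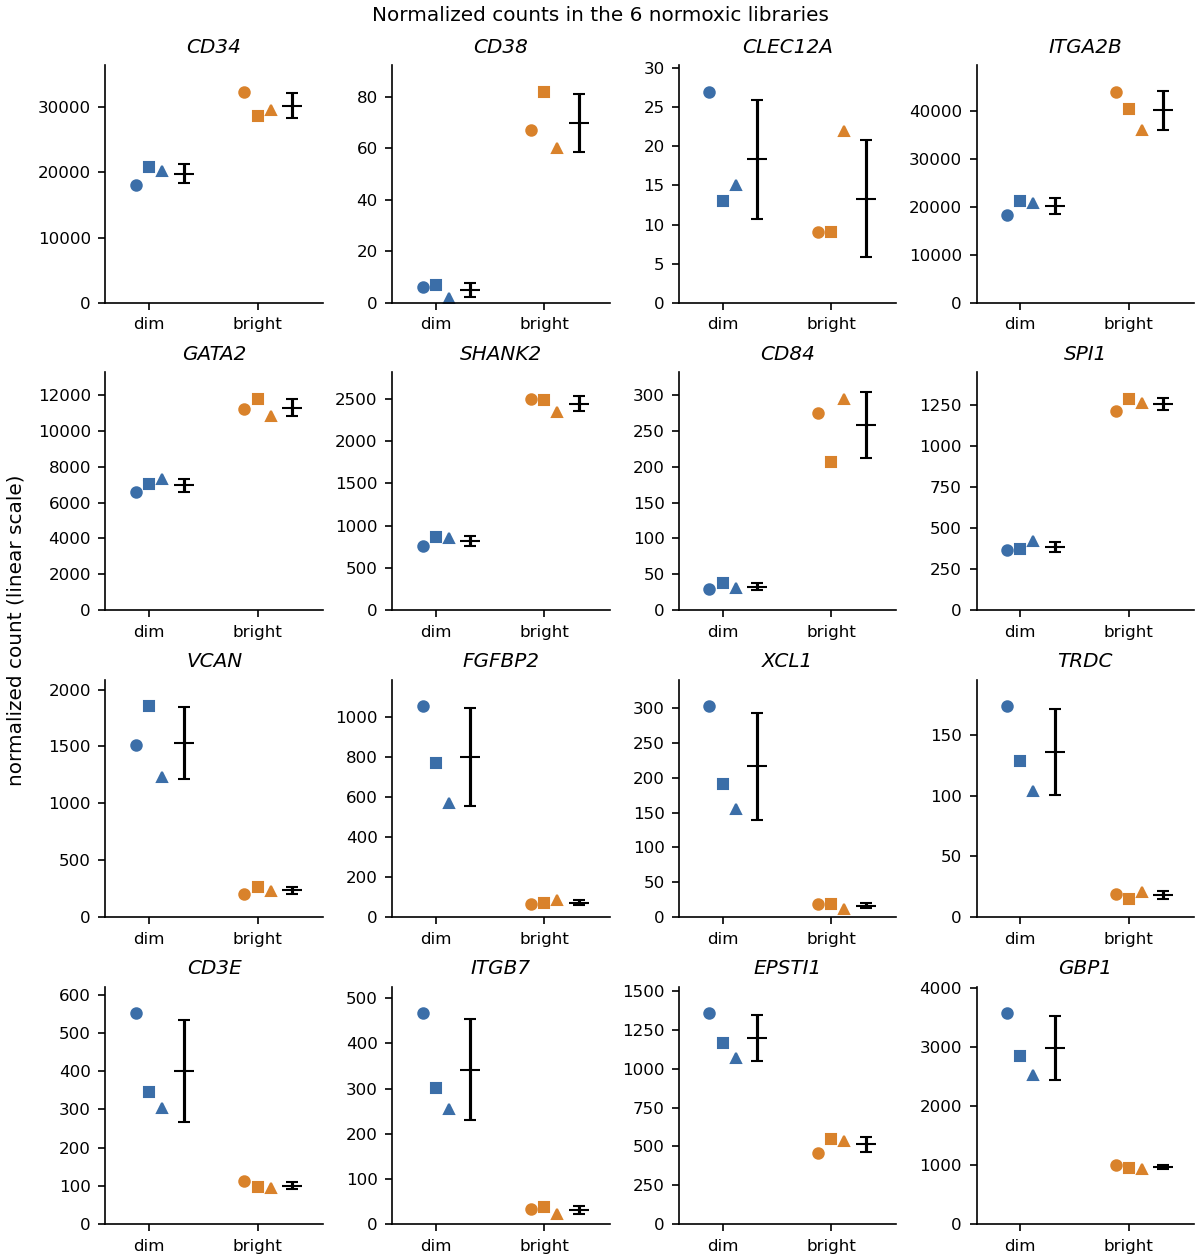
Normalized counts (vertical axis of each panel, linear and from 0) of 16 genes in the 3 dim (blue) and 3 bright (orange) normoxic libraries. Circles, squares and triangles are replicates 1, 2 and 3, and bars give the mean ± SD. CLEC12A overlaps between the groups and the other 15 genes do not.

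Other leukaemia surface antigens went both ways. Of 31 tested, 4 were higher and 3 lower in bright cells, with a median log2 fold change of -0.05 against -0.005 over all genes tested. CD84, a receptor of the SLAM family, rose from 29, 38 and 31 in dim to 275, 207 and 295 in bright cells (2.94 ± 0.31, adjusted p = 6.5e-05). CD33, the sialic acid-binding myeloid receptor used as a drug target in this leukaemia, was low at 37, 52 and 36 in dim and 99, 82 and 107 in bright cells (1.20 ± 0.22, adjusted p = 0.00515). On the other side, the pan-leukocyte phosphatase PTPRC (CD45) fell from 13090, 14336 and 13287 to 9846, 9596 and 9821 (-0.48 ± 0.09, adjusted p = 0.00626). The interleukin-1 receptor accessory chain IL1RAP fell by 0.59 ± 0.11 on the log2 scale (adjusted p = 0.00485). Neither group pair overlapped for these genes. KIT, the stem cell factor receptor, was at 155, 152 and 112 in dim and 22, 14 and 61 in bright cells (-2.33 ± 0.50, adjusted p = 0.0117), but the call was lost without dim replicate 1 or without bright replicate 2.

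T and NK cell genes were among those lower in bright cells. Of 56 listed, 42 were tested, and of these 19 were lower in bright cells, 2 were higher and 21 did not pass. The list median was -0.94, against -0.005 for all genes. Summed over the list, normalized counts were 34291, 28915 and 27148 in dim and 22242, 21333 and 20262 in bright libraries. The highest sum was that of dim replicate 1, which was also the deepest library, at an estimated 39500000 reads, and the highest in muscle markers, at a summed 5559. The part of these in the result was not tested. Without that library 16 of the list's genes were lower, and leaving out other single libraries gave 16 to 19. Without dim replicate 1 and bright replicate 2 together, 13 were lower and 1 was higher (median -0.75). Without replicate 1 of each subset, the highest in muscle markers, 18 were lower and 2 higher (median -0.69).

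Some genes of the T cell receptor machinery fell. TRDC, the constant region of the T cell receptor delta chain (chromosome 14, 22462932 to 22466577), gave 174, 129 and 104 in dim and 19, 15 and 21 in bright cells (-2.80 ± 0.32, adjusted p = 0.000118). CD3E, a signalling chain of the receptor complex, gave 552, 345 and 304 against 112, 96 and 95 (-1.93 ± 0.19, adjusted p = 3.65e-05). The zeta chain CD247 showed 283, 194 and 205 in dim and 34, 41 and 57 in bright cells (-2.35 ± 0.22, adjusted p = 2.34e-05). Dim and bright values did not overlap for any of these chains. CD3D, another CD3 chain, was abundant in both subsets and fell by 0.86 ± 0.10 (adjusted p = 0.000118), from between 6683 and 9078 to between 3873 and 4360. The proximal kinase LCK was low at 67, 41 and 40 in dim and 7, 12 and 7 in bright cells (-2.38 ± 0.42, adjusted p = 0.00344). ZAP70, the kinase that binds the phosphorylated chains, fell by 0.33 ± 0.08 (adjusted p = 0.019), a call kept in 2 of the 6 leave-outs. The receptor chain genes TRAC, TRBC1, TRBC2 and TRGC2 and the adaptor LAT, all listed, did not pass, and CD3G was below the filter.

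Genes of cytotoxic cells followed. FGFBP2, a secreted protein of cytotoxic lymphocytes (chromosome 4, 15960240 to 15963236), was at 1053, 769 and 568 in dim and 64, 68 and 85 in bright cells, a 10.6-fold difference (-3.41 ± 0.20, adjusted p = 1.34e-06). NKG7, a cytotoxic granule protein, fell from 4298, 3771 and 3252 to 1761, 1656 and 1390 (-1.23 ± 0.12, adjusted p = 2.48e-05). The protease GZMB fell by 1.78 ± 0.32 (adjusted p = 0.00378) and GZMA fell by 1.12 ± 0.23 (adjusted p = 0.0086). PRF1, the pore-forming perforin, did not pass, with 728, 770 and 684 in dim and 990, 716 and 720 in bright cells. Of the transcription factors on the T and NK cell list, TBX21 and ZNF683 were lower too. EOMES, GATA3, TCF7 and BCL11B did not pass. TBX21 (T-bet) had 768, 614 and 509 in dim and 206, 190 and 183 in bright cells (-1.68 ± 0.17, adjusted p = 4.06e-05), and ZNF683 (Hobit) fell by 1.57 ± 0.18 (adjusted p = 0.000112). CRTAM, a receptor of activated NK and CD8 T cells, was at 172, 151 and 106 in dim and at 17 in each bright library (-2.97 ± 0.23, adjusted p = 8.69e-06). IL2RB, the interleukin-2 and interleukin-15 receptor beta chain, fell from 803, 708 and 505 to 212, 179 and 129 (-1.95 ± 0.21, adjusted p = 8.86e-05).

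The exceptions in this list were CD7 and KLRG1. CD7, an early T and NK cell antigen often present on immature leukaemias, rose from 2517, 2440 and 2418 to 4088, 4236 and 3834 (0.72 ± 0.08, adjusted p = 8.16e-05). KLRG1, an inhibitory lectin receptor, rose by 0.59 ± 0.12 (adjusted p = 0.00952). CD8A, a co-receptor chain, was at 107, 73 and 76 in dim and 40, 29 and 27 in bright cells (-1.39 ± 0.33, adjusted p = 0.0213, kept in 2 of the 6 leave-outs). Other genes that define mature T cells, CD4, CD5, CD6 and CD8B, were below the filter, and 3 of the 56 listed genes were at 0 in all 6 libraries. In the B cell and early lymphoid list, 13 genes were tested, 1 was higher, 1 was lower and the median was 0.18. The lower gene was IKZF3 (Aiolos), a lymphoid zinc finger factor, with 253, 179 and 140 in dim and 21, 22 and 32 in bright cells (-2.86 ± 0.28, adjusted p = 3.65e-05). Its relative IKZF2 (Helios) went the other way with 51, 43 and 42 against 69, 131 and 128 (1.20 ± 0.32, adjusted p = 0.041), a call kept in 1 of the 6 leave-outs.

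**Figure D3:**
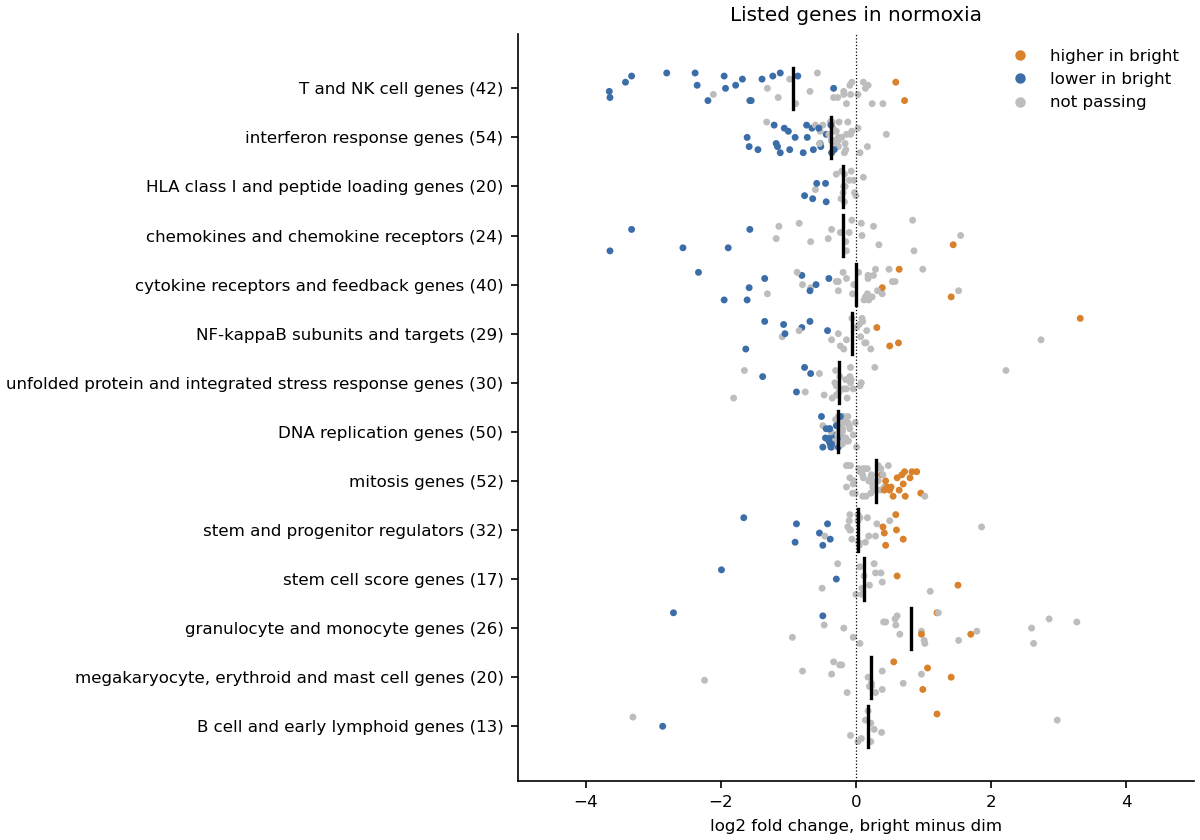
Fitted log2 fold change, bright minus dim (horizontal axis), of every tested gene in 14 lists, with the number tested in brackets. Orange and blue points passed the test, grey points did not, and the vertical bar is the list median. T and NK cell genes (median -0.94) spread far to the dim side, replication genes (-0.26) sit narrowly below 0 and mitosis genes (0.29) above it.

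Chemokines and their receptors contributed 1 higher and 5 lower genes of 24 tested (median -0.19). The largest falls were those of XCL1 and XCL2, the lymphotactins, which lie close together on chromosome 1 (168576061 to 168582077 and 168540765 to 168543997). XCL2 gave 882, 486 and 466 in dim and 67, 60 and 48 in bright cells (-3.32 ± 0.24, adjusted p = 3.67e-06), and XCL1 gave 303, 191 and 155 against 18, 18 and 12 (-3.64 ± 0.42, adjusted p = 0.00013). The genes are nearly identical, so the split of reads between them is uncertain, although both lay on the same side. Among the receptors, CXCR3 of effector lymphocytes fell from 1062, 830 and 638 to 285, 197 and 194 (-1.89 ± 0.21, adjusted p = 8.86e-05). CCR7, which guides cells into lymph nodes, was at 49, 55 and 35 in dim and 6, 6 and 9 in bright cells (-2.56 ± 0.35, adjusted p = 0.000448). The monocyte receptor CCR2 moved in the opposite direction, from 64, 62 and 46 to 180, 150 and 141 (1.44 ± 0.18, adjusted p = 0.000209). CXCR4, the receptor for the marrow chemokine CXCL12, did not pass and ranged from 14 to 69 with overlapping groups.

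Adhesion genes went both ways. Of 36 tested, 4 were higher and 6 lower, with a median of 0.08. ITGB7, the integrin beta chain of gut-homing lymphocytes, gave 467, 302 and 255 in dim and 33, 38 and 22 in bright cells (-3.41 ± 0.28, adjusted p = 1.08e-05). ICAM1, a cytokine-induced ligand of leukocyte integrins, fell by 1.35 ± 0.13 (adjusted p = 3.12e-05) and PECAM1 fell by 1.02 ± 0.10 (adjusted p = 2.6e-05). The higher genes included the platelet integrin pair. ITGA2B (chromosome 17, 44372181 to 44389505) rose from 18278, 21240 and 20845 to 43979, 40438 and 35893 (0.99 ± 0.09, adjusted p = 1.59e-05), and its partner ITGB3 rose from 757, 1270 and 877 to 2370, 1667 and 1929 (1.06 ± 0.17, adjusted p = 0.00149). ESAM, an endothelial and stem cell adhesion molecule, rose by 0.83 ± 0.13 (adjusted p = 0.00124) and ICAM2 by 0.63 ± 0.10 (adjusted p = 0.00136).

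The megakaryocyte, erythroid and mast cell list had 20 tested genes, of which 4 were higher, none was lower and 16 did not pass (median 0.23). The last of the 4, NFE2, a megakaryocytic and erythroid factor, rose by 0.56 ± 0.13 (adjusted p = 0.0167) and kept its call in 2 of the 6 leave-outs. Summed over the whole list, normalized counts of 33307, 36745 and 35827 in dim and 62136, 59561 and 54942 in bright cells came mostly from ITGA2B. Another member was IL1RL1, the interleukin-33 receptor of mast cells, with 221, 222 and 184 in dim and 604, 442 and 646 in bright cells (1.41 ± 0.17, adjusted p = 0.000185). GATA1, the erythroid and megakaryocytic master factor, was low and did not pass, at 65, 40 and 45 in dim and 36, 36 and 45 in bright cells. Globin genes and the platelet chemokines PF4 and PPBP were below the filter.

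Stem and progenitor regulators went both ways. Of 32 tested, 6 were higher and 7 lower (median 0.04). The lower count was 4 without dim replicate 2, dim replicate 3 or bright replicate 3, and the higher count was 4 without dim replicate 2 or bright replicate 2. Without dim replicate 1 and bright replicate 2 together, 1 was higher and 5 were lower. GATA2, a factor of stem cells and mast cell precursors (chromosome 3, 128479422 to 128493187), rose from 6594, 7018 and 7328 to 11250, 11815 and 10867 (0.70 ± 0.08, adjusted p = 0.000125). FLI1, an ETS factor, rose from 6375, 6829 and 7206 to 8733, 9023 and 9097 (0.40 ± 0.07, adjusted p = 0.00268). The bridging protein LMO2 (0.42 ± 0.08, adjusted p = 0.00454) and its partner LYL1 (0.44 ± 0.08, adjusted p = 0.00553) were higher as well. All of these act together in stem cells with RUNX1, TAL1 and ERG, which did not pass, with log2 fold changes of 0.06 ± 0.07, 0.14 ± 0.11 and 0.29 ± 0.11. The 7 lower genes included 5 HOX genes, of which HOXA3 kept its call in 3 of the 6 leave-outs and HOXA5 and HOXB3 in 1 each. HOXA10 gave 3351, 3100 and 3379 in dim and 2005, 2441 and 2337 in bright cells (-0.54 ± 0.09, adjusted p = 0.00217), and HOXB2 fell by 0.38 ± 0.07 (adjusted p = 0.00518). HOXA9, a leukaemia-associated member, did not pass (-0.12 ± 0.10). ID2, an inhibitor of helix-loop-helix factors, fell from 2701, 2153 and 2367 to 1089, 1473 and 1325 (-0.90 ± 0.12, adjusted p = 0.000324).

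The 17 genes of a published leukaemia stem cell score were all tested, and 2 were higher, 2 lower and 13 did not pass (median 0.12). The score itself was not computed. Besides CD34, the gene that rose was NYNRIN, which carries a retroviral integrase-like domain (chromosome 14, 24398786 to 24419288), from 411, 499 and 420 to 1409, 1126 and 1252 (1.51 ± 0.13, adjusted p = 1.13e-05). The membrane protein EMP1 was lower with 600, 304 and 341 against 237, 55 and 74 (-1.99 ± 0.41, adjusted p = 0.00952), a call lost when dim replicate 1 was left out. DNMT3B, a DNA methyltransferase, was lower by little (-0.29 ± 0.08, adjusted p = 0.0498), with the call kept in 1 of the 6 leave-outs.

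Granulocyte and monocyte genes gave 3 higher and 2 lower genes of 26 tested, with a median of 0.81 and with replicates more than 4-fold apart in 10 of the 26. Without genes whose replicates were more than 4-fold apart at either oxygen level, 15 were tested and the median was 0.41. SPI1 (PU.1), the myeloid ETS factor (chromosome 11, 47354858 to 47395640), rose from 367, 370 and 421 to 1217, 1290 and 1262 (1.70 ± 0.35, adjusted p = 0.0102). The 3 bright values lay close together, and so did the dim ones. The standard error comes from all 12 libraries and is wide beside that spread. FCGR2A, a low-affinity Fc receptor, rose by 0.97 ± 0.18 (adjusted p = 0.00517). CEBPA, needed for granulocyte commitment, did not pass (-0.04 ± 0.16), and CEBPB fell by 0.49 ± 0.09 (adjusted p = 0.00381). The neutrophil elastase gene ELANE illustrates the spread within groups, with 5, 6 and 4 in dim and 12, 25 and 145 in bright cells, and it did not pass (adjusted p = 0.381).

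Several precise rises lay outside these lists. SHANK2, a scaffold of synapses (chromosome 11, 70467856 to 71252738), rose from 754, 860 and 850 to 2502, 2489 and 2346 (1.57 ± 0.08, adjusted p = 3.42e-07). GFRA1, a receptor for the neurotrophic factor GDNF, rose from 1564, 1899 and 1644 to 4591, 4487 and 4741 (1.44 ± 0.10, adjusted p = 3.1e-06). Bright values were nearly equal among replicates in both. HPSE2, a relative of heparanase that lacks its activity, rose from 178, 146 and 133 to 538, 547 and 555 (1.85 ± 0.15, adjusted p = 1.08e-05), and the zinc finger gene ZNF704 rose by 1.58 ± 0.13 (adjusted p = 9.35e-06). GPR85, an orphan receptor, rose by 1.80 ± 0.17 (adjusted p = 2.34e-05), HEPH, a ferroxidase of iron export, by 1.73 ± 0.25 (adjusted p = 0.000743), and BTBD11 by 2.21 ± 0.35 (adjusted p = 0.00169). The kinase BTK had 123, 143 and 115 in dim and 374, 340 and 547 in bright cells (1.69 ± 0.45, adjusted p = 0.0375), but its call was kept in 0 of the 6 leave-outs, whose adjusted p ran from 0.056 to 0.128. WDFY4, a factor of antigen cross-presentation, rose by 2.08 ± 0.46 (adjusted p = 0.0149), kept in 3 of 6.

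Some matrix genes and proteases fell steeply. VCAN, the proteoglycan versican that monocytes and some progenitors make (chromosome 5, 83471674 to 83582303), fell from 1509, 1857 and 1230 to 206, 266 and 229 (-2.70 ± 0.14, adjusted p = 3.42e-07). PRSS2, a trypsinogen, had 264, 213 and 156 in dim and 10, 14 and 11 in bright cells (-4.04 ± 0.35, adjusted p = 1.56e-05). Trypsinogen genes are close copies, so its reads cannot be assigned with certainty. COL21A1, a fibril-associated collagen, gave 237, 154 and 129 against 19, 7 and 12 (-3.72 ± 0.38, adjusted p = 5.43e-05). ADAMTS1, a versican-cleaving protease, fell from 1107, 729 and 617 to 207, 89 and 121 (-2.59 ± 0.28, adjusted p = 7.77e-05). Over the whole matrix list the picture was less even. Of 40 tested, 2 were higher, 5 lower and 33 did not pass, the median was -0.82, and replicates were more than 4-fold apart in 19 genes. Without bright replicate 1, 15 were lower and the median was -1.71, and without the other single libraries 4 or 5 were lower, with a median of -0.33 without dim replicate 1, -0.48 without bright replicate 2, -0.46 without bright replicate 3 and -1.34 without dim replicate 2. Without replicate 1 of each subset, 10 were lower. Fibroblast markers, 12 of 12 tested with 1 lower and none at 0 in all libraries, moved with it, summing to 9261, 3168 and 3351 in dim and 6916, 2063 and 1724 in bright libraries, and their part was not tested.

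Further falls came from membrane and signalling genes. HEG1, a mucin-like receptor of endothelial junctions, fell from 4358, 4799 and 3452 to 956, 725 and 660 (-2.43 ± 0.16, adjusted p = 2.65e-06). LRIG1, a feedback inhibitor of receptor tyrosine kinases, fell from 1099, 949 and 858 to 237, 211 and 218 (-2.11 ± 0.15, adjusted p = 3.51e-06). The unconventional myosin MYO7A fell by 2.61 ± 0.17 (adjusted p = 3.1e-06), the transporter SLC12A8 fell by 3.13 ± 0.35 (adjusted p = 0.000113), and the lipoprotein receptor relative LRP1B fell by 3.05 ± 0.37 (adjusted p = 0.00017). GIMAP8, a GTPase of lymphocytes, had 658, 687 and 593 in dim and 178, 180 and 190 in bright cells (-1.81 ± 0.12, adjusted p = 3.1e-06).

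Interferon response genes were shifted towards dim cells. Of 54 tested, 24 were lower, none was higher and 30 did not pass (limma). At an unadjusted p under 0.05, 37 were lower and 0 higher. In sign, 50 of the 54 fitted values were negative, and the median was -0.38. GBP1, a GTPase induced by interferon gamma, fell from 3582, 2849 and 2529 to 999, 961 and 936 (-1.61 ± 0.12, adjusted p = 4.55e-06). EPSTI1 fell from 1359, 1167 and 1071 to 460, 549 and 538 (-1.21 ± 0.10, adjusted p = 1.52e-05). Groups were far apart for all of these. Antiviral effectors included MX1 with 270, 258 and 262 in dim and 132, 93 and 126 in bright cells (-1.18 ± 0.15, adjusted p = 0.000233). The factors IRF1 (-0.72 ± 0.09, adjusted p = 0.000345) and IRF9 (-0.65 ± 0.10, adjusted p = 0.0011) fell as well. Leaving out 1 library gave 19 to 25 lower genes. Leaving out dim replicate 1 and bright replicate 2 together, the highest of each subset in airway epithelium markers (412 and 7295), gave 14.

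The letters GAAANNGAAA stood in the promoters (250 bases before to 50 after the start) of 27 of the 43 interferon list genes with a RefSeq promoter, 62.8%, against 2.91% of the 11643 tested genes with one and 3.65% of all 27305 promoters. Within the list the share was 58.8% of 17 lower genes and 65.4% of 26 genes that did not pass. The letters were common among the members that fell and among those that did not pass.

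HLA class I and peptide loading genes gave 5 lower and no higher genes of 20 tested in limma (median -0.19; 9 lower and 0 higher at an unadjusted p under 0.05), and 3 were lower without dim replicate 1, dim replicate 2 or bright replicate 2. The peptide transporter TAP1 fell from 9507, 8628 and 7756 to 5330, 5131 and 4808 (-0.76 ± 0.09, adjusted p = 0.000118), and HLA-E, a ligand of NK cell receptors, fell by 0.64 ± 0.10 (adjusted p = 0.0011). The transactivator NLRC5 fell by 0.44 ± 0.09 (adjusted p = 0.00701). HLA-B, a classical chain, did not pass (-0.29 ± 0.13). HLA class II genes gave no call in either direction among 11 tested with limma, and 5 were higher and 0 lower at an unadjusted p under 0.05. Their median was 1.01, with 9 positive and 2 negative fitted values.

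Cytokine feedback and inflammatory genes were lower in bright cells in part. Among 40 cytokine receptors and feedback genes, 3 were higher and 9 lower (median 0.00). The suppressors of cytokine signalling fell, SOCS3 from 1700, 1726 and 1565 to 718, 693 and 553 (-1.35 ± 0.11, adjusted p = 1.08e-05) and SOCS1 from 1139, 860 and 818 to 351, 366 and 233 (-1.58 ± 0.17, adjusted p = 8.14e-05). BCL6, a transcriptional repressor induced by STAT proteins, fell by 1.61 ± 0.24 (adjusted p = 0.00114). Among 29 NF-kappaB subunits and targets, 4 were higher and 7 lower (median -0.06). Lymphotoxin beta, LTB, fell from 3233, 2523 and 2517 to 894, 959 and 809 (-1.63 ± 0.12, adjusted p = 3.52e-06), and the cytokine IL32 from 26958, 22435 and 22261 to 11121, 11490 and 11320 (-1.07 ± 0.08, adjusted p = 8.53e-06). The apoptosis inhibitor BIRC3 fell by 0.80 ± 0.16 (adjusted p = 0.00771). In contrast, the cytokine IL1B rose from 1146, 1198 and 1143 to 1512, 1644 and 1783 (0.50 ± 0.09, adjusted p = 0.00458), and NFKBIE, an inhibitor of NF-kappaB, rose by 0.63 ± 0.13 (adjusted p = 0.0101).

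Of 30 genes of the protein-folding and integrated stress responses, 4 fell and none rose in limma (12 lower and 2 higher at an unadjusted p under 0.05), with a median of -0.25. Of all genes tested, 3.79% were lower. PPP1R15A, which dephosphorylates eIF2 alpha, fell from 1990, 1894 and 2032 to 1316, 1264 and 1131 (-0.67 ± 0.09, adjusted p = 0.000464). ATF3, a stress-induced repressor, was at 209, 171 and 206 in dim and 84, 64 and 76 in bright cells (-1.38 ± 0.22, adjusted p = 0.00201), and TRIB3 fell by 0.88 ± 0.17 (adjusted p = 0.00768). The chaperone HSPA5 did not pass (-0.08 ± 0.07). In the BCL2 family 1 of 14 genes passed, the pro-apoptotic BMF, which fell from 2875, 2852 and 2989 to 1213, 1346 and 1265 (-1.19 ± 0.10, adjusted p = 1.13e-05). BCL2, MCL1 and BCL2L1 did not pass, at -0.15 ± 0.10, -0.06 ± 0.08 and 0.14 ± 0.07. Of 38 oxygen-sensing genes and HIF targets, 1 was higher and 2 lower, beside 2.88% higher and 3.79% lower of all genes tested. The lower genes, NDRG1 and ERO1A, kept their calls in 1 and 0 of the 6 leave-outs. The one that rose, EPAS1 (HIF-2 alpha), went from 462, 408 and 413 to 1215, 906 and 925 (1.23 ± 0.16, adjusted p = 0.000345), while HIF1A did not pass (-0.26 ± 0.11).

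Genes of NAD metabolism gave 3 higher and 0 lower genes of 31 tested in limma (4 and 1 at an unadjusted p under 0.05), and the median was 0.06. Besides CD38 these were BST1 and KYNU. BST1 (CD157), which makes cyclic ADP-ribose as CD38 does and is its neighbour on chromosome 4 (15702950 to 15774190), was at 15, 26 and 21 in dim and 58, 84 and 107 in bright cells (1.94 ± 0.51, adjusted p = 0.0383). The groups did not overlap, but the call was kept in 1 of the 6 leave-outs, the one without bright replicate 1. KYNU, an enzyme of tryptophan breakdown, had 1, 2 and 1 against 52, 68 and 13 (4.02 ± 1.07, adjusted p = 0.0394, also kept in 1). NAMPT, which recycles nicotinamide into NAD, did not pass (-0.18 ± 0.10).

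Cell cycle genes went in opposite directions by phase. Replication genes were lower in bright cells, 20 of 50 past the threshold and none higher in limma (37 lower and 0 higher at an unadjusted p under 0.05), with 49 negative fitted values and a median of -0.26. CDC6, which loads the replicative helicase, fell from 3864, 3939 and 3741 to 2758, 2542 and 2795 (-0.51 ± 0.06, adjusted p = 0.000273). MCM6, a subunit of that helicase, fell from 11551, 11895 and 11999 to 9142, 8556 and 9517 (-0.38 ± 0.06, adjusted p = 0.00138), and GINS2, of the active helicase complex, fell by 0.44 ± 0.07 (adjusted p = 0.00247). The differences were small and the groups did not overlap for any of them. The count fell when single libraries were left out, to 8 without bright replicate 2, to 9, 10 and 11 without dim replicates 2, 1 and 3, and to 4 without dim replicate 1 and bright replicate 2 together, and the medians then lay between -0.21 and -0.28.

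Mitosis genes were higher in bright cells, 17 of 52 past the threshold and none lower in limma (28 higher and 0 lower at an unadjusted p under 0.05), with 43 positive fitted values and a median of 0.29. CCNB2, a mitotic cyclin, rose from 1675, 1722 and 1688 to 2515, 2569 and 3252 (0.70 ± 0.10, adjusted p = 0.000743). CCNB1 rose from 2390, 2255 and 1969 to 3723, 3597 and 4445 (0.83 ± 0.14, adjusted p = 0.00239), and the mitotic kinase PLK1 from 2764, 3098 and 2474 to 5321, 4719 and 5430 (0.90 ± 0.15, adjusted p = 0.00268). Bright replicate 3 had the highest value for each of these. CDC20, the activator of anaphase, rose by 0.73 ± 0.13 (adjusted p = 0.00389), the helicase PIF1 by 0.96 ± 0.14 (adjusted p = 0.000931) and the centromeric histone CENPA by 0.64 ± 0.08 (adjusted p = 0.000289). CDK1 and TOP2A did not pass, at -0.09 ± 0.14 and 0.22 ± 0.13. Without 1 library the count was 10 to 18, the lowest being 10 without dim replicate 3 and 11 without bright replicate 2 or 3, and it was 8 without dim replicate 1 and bright replicate 2 together. Of 24 cyclins, kinases and inhibitors of G1, 1 was lower and none was higher, beside 3.79% and 2.88% of all genes tested. The lower gene, E2F2, kept its call in 2 of the 6 leave-outs.

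TTTCCCGC or TTTGGCGC occurred in 46.3% of 41 replication promoters, against 3.53% of all genes tested and 2.31% of all promoters, and in 53.3% of the 15 lower genes with a promoter against 42.3% of the 26 that did not pass. TTTGAA occurred in 69.6% of 46 mitosis promoters, against 10.1% of all genes tested and 15.4% of all promoters. CCAAT occurred in 78.3% of them, against 36.6% and 35.7%. Among mitosis genes TTTGAA was in 64.3% of the 14 higher and 71.9% of the 32 that did not pass, and CCAAT in 92.9% and 71.9%. All of these shares are descriptions of letters in a fixed window.

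Some of the largest fold changes rested on unequal replicates. Of 14 airway epithelium markers tested, 3 were higher in bright cells, 0 were lower and 11 did not pass, with 2 negative fitted values. The 3 that passed were high in bright replicates 1 and 2 and low in the other normoxic libraries. The airway mucin MUC5B had 5, 0 and 8 in dim and 812, 1606 and 37 in bright cells (6.60 ± 1.78, adjusted p = 0.0413), the keratin KRT18 11, 6 and 4 against 824, 1819 and 62 (5.93 ± 1.39, adjusted p = 0.0203), and CEACAM6 0, 1 and 0 against 262, 503 and 15 (6.67 ± 1.54, adjusted p = 0.0182). Summed over 20 airway epithelium markers, the normalized counts were 412, 371 and 362 in dim and 3642, 7295 and 384 in bright libraries, and SCGB1A1 and SCGB3A1, which define airway secretory cells, were at 0 in all 6. Of the 433 higher genes, 17 had a value in bright replicate 3 under 50% of both other bright values. All 17 had a negative bright-minus-dim estimate in hypoxia, which passed for 12 of them. TNFAIP2 followed this pattern, with 68, 22 and 20 in dim and 363, 580 and 157 in bright cells (3.32 ± 0.63, adjusted p = 0.00586), as did the laminin chain LAMA5 with 97, 75 and 62 against 617, 924 and 119 (adjusted p = 0.0389). The part of epithelial transcripts in these results was not tested. The calls of MUC5B and KRT18 were kept in 1 of 6 leave-outs, that of CEACAM6 in 2, that of LAMA5 in 1 and that of TNFAIP2 in 6.

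Skeletal muscle markers varied too and gave no call in limma among 21 tested of 24 listed, with 0 higher and 5 lower at an unadjusted p under 0.05, 21 negative fitted values, no member at 0 in all 6 libraries, and sums of 5559, 1532 and 2325 in dim and 3986, 742 and 680 in bright libraries. Replicate 1 of each subset was the highest. Over all tested genes, 416 had normoxic replicates more than 4-fold apart after 10 was added to each value, among them 10 of the 433 higher and 0 of the 570 lower genes.

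**Figure D4:**
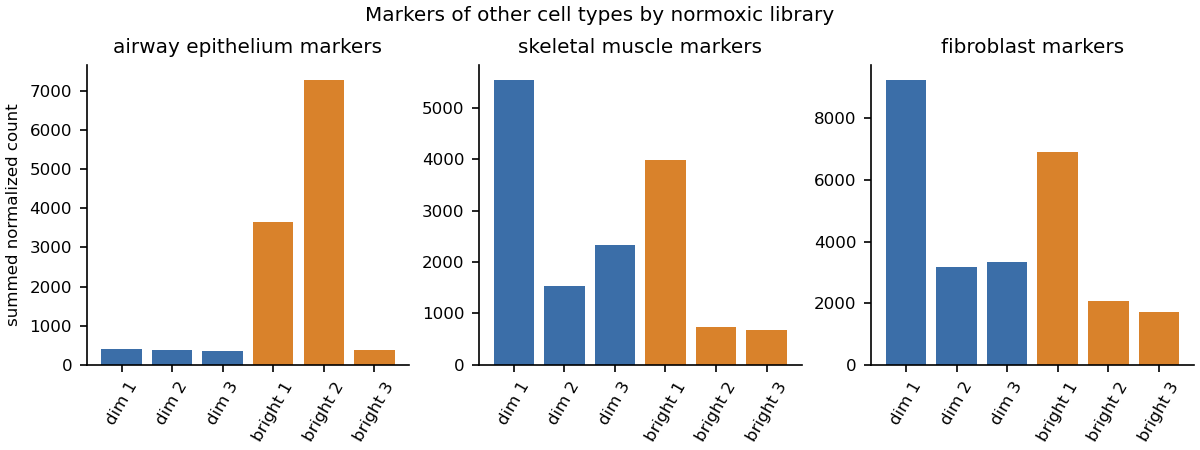
Summed normalized counts (vertical axes, from 0) of airway epithelium, skeletal muscle and fibroblast markers in each of the 6 normoxic libraries, dim in blue and bright in orange. Airway markers reach 3642 and 7295 in bright replicates 1 and 2, and muscle markers 5559 and 3986 in replicate 1 of each subset.

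At 3% oxygen the same subsets were compared in libraries not shared with the normoxic ones. There 3994 genes passed, 26.5% of those tested. Of the 433 genes higher in normoxic bright cells 297 passed in the same direction and 36 in the opposite one, and of the 570 lower genes 386 and 3. The bright-to-dim effect itself differed between oxygen levels for 355 genes (2.36% of those tested), among them 46 of the higher and 24 of the lower genes. Of the 19 T and NK cell genes that fell, 17 also fell in hypoxia, and for 0 of them did the difference between oxygen levels pass in limma. There FGFBP2 fell by 2.34 ± 0.20 (adjusted p = 1.64e-05) and XCL2 fell by 3.24 ± 0.24 (adjusted p = 4.46e-06). SHANK2 rose by 2.02 ± 0.08 (adjusted p = 2.78e-08) and CD84 by 2.51 ± 0.31 (adjusted p = 0.000171), and 13 of the 17 mitosis genes and 13 of the 20 replication genes passed in the direction they had in normoxia.

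Among the 24 lower interferon genes the effect differed between oxygen levels for 7. TRIM22, an antiviral ubiquitin ligase, was at -0.90 ± 0.08 in normoxia and -0.37 ± 0.08 in hypoxia, and the difference between these passed (0.53, adjusted p = 0.0357). ITGB3 and NYNRIN differed in the other sense, with larger rises in hypoxia of 2.26 ± 0.17 and 2.27 ± 0.13. Of 121 named genes, 16 had an effect that differed between oxygen levels, 11 of them with opposite signs, MUC5B, KRT18, CEACAM6 and TNFAIP2 included. The hypoxic estimates of MUC5B and CEACAM6 did not pass.

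**Figure D5:**
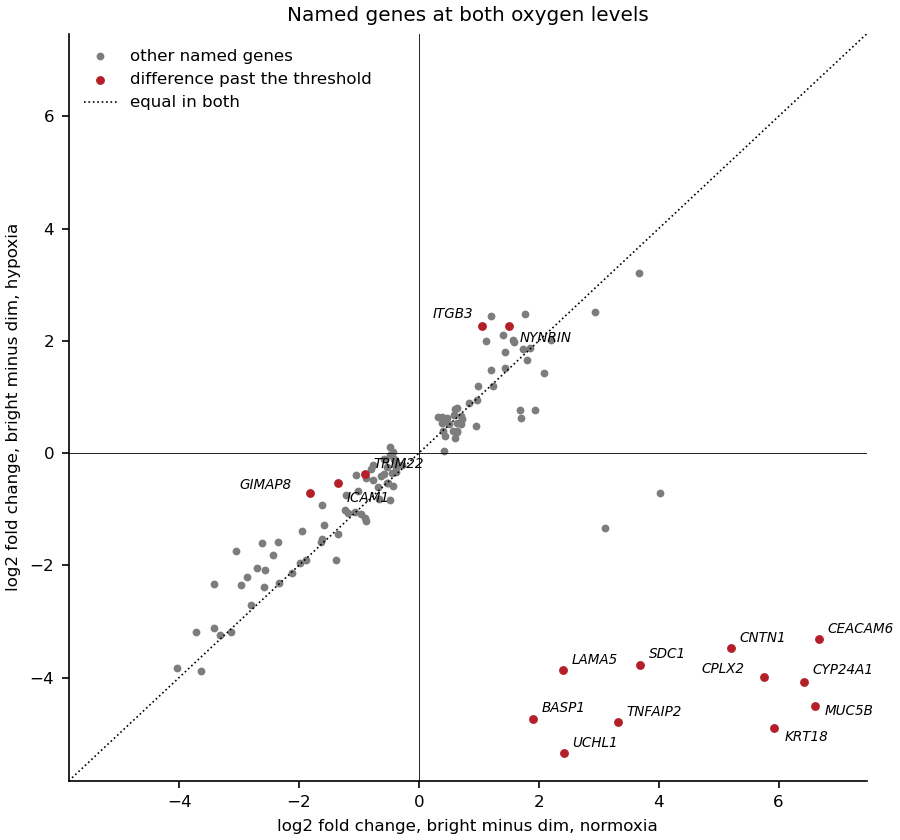
Fitted log2 fold change, bright minus dim, of 121 named genes in normoxia (horizontal axis) and hypoxia (vertical axis), with equality dotted. In red, the 16 genes whose effect differed between oxygen levels past the threshold. Of these, 11 lie in the lower right, with opposite signs, and 5 keep their sign and differ in size.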

How the data were processed

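The deposited table held 1 normalized count per gene and library, rounded by the authors to whole numbers, so the values are a score and not raw counts. The total per library was nearly equal, and the value of 1 read, read from the steps between low values, ran from 0.815 to 1.18 in the normoxic libraries, which gave the estimated depths. Trimmomatic 0.39 and STAR 2.4.2a are named in the submitters' processing notes, with the human build hg38. The counting tool and whether it used strand: not given in the sources used here. Overlapping, antisense and near-identical genes may therefore share reads. Of 28395 genes, 330 had no symbol and 27 had a symbol turned into a date.

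A count model was planned for raw counts. Because the values were normalized and rounded, limma 3.58.1 in R 4.3.3 was used on log2(value + 1) with a mean trend, with 1 mean per group fitted over all 12 libraries in 4 groups (8 residual degrees of freedom). Fold changes are on that scale and understate low genes. Genes needed a value of 10 in 3 or more libraries, and tests were 2-sided with Benjamini-Hochberg adjustment over all genes tested at 0.05. The hypoxic contrast and the difference between oxygen levels came from the same fit. The fit was tested on simulated data drawn independently around each gene's mean, which could not show the effect of uneven replicates. Tables and figures were made with Python 3.11.15, pandas 2.3.3 and matplotlib 3.10.9.

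Members and lists were chosen with earlier results of these data known. Genes named are the surface markers that define the subsets, per direction the 12 largest changes and the 6 smallest adjusted p among evenly replicated genes with a mean of at least 100, the 6 largest rises with uneven replicates, and per list and direction up to 4 genes past the threshold with the smallest adjusted p. Other list members named, such as CD3E, TBX21, PLK1 and MX1 and members that did not pass, were chosen after their values were seen. Replicates were called more than 4-fold apart after 10 was added to each value. A leave-out refits the model without 1 of the 6 normoxic libraries. RefSeq promoters (GRCh38.p14) were found for 11643 of the genes tested, 77.3%. Alternatives covered scaling, the mean trend, the filter, the pseudocount, the libraries in the fit, the replicate block, the threshold, and each library left out. Some genes that met the naming rule are not reported here.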

Additional observations from a re-analysis of the deposited data

Results flagged for a closer look

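For 24 of the genes named here and in the report, the bright-minus-dim difference itself differed between oxygen levels, by the interaction contrast of the same limma fit (adjusted p under 0.05). The groups of 3 were too small for a check of single outlying samples. Values are hypoxic minus normoxic, on the log2 scale.

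A negative estimate in hypoxia was found for 11 of them that rose in normoxia, and it did not pass for MUC5B, CEACAM6, CPLX2 and CNTN1. The difference was -11.12 for the mucin MUC5B, -10.83 for KRT18, -10.50 for CYP24A1, -9.98 for CEACAM6, -9.74 for CPLX2 and -8.69 for CNTN1. It was -8.12 for TNFAIP2, -7.76 for UCHL1, -7.46 for SDC1, -6.63 for BASP1 and -6.27 for LAMA5. The call of a normoxic rise was kept in 1 of the 6 leave-outs for UCHL1, BASP1, CPLX2, CNTN1, MUC5B, KRT18 and LAMA5. That call was kept in 2 for CEACAM6, in 3 for CYP24A1 and SDC1, and in 6 for TNFAIP2. The libraries highest in airway epithelium markers were bright in normoxia (3642 and 7295) and dim in hypoxia (5968 and 18605), and the part of these markers in the differences was not tested.

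The interferon response genes named here were lower in bright cells in normoxia. That normoxic call was kept in every leave-out for TRIM22, GBP5, DTX3L and OAS2, and in 3 for PARP14. The difference was 0.53 for TRIM22 and 0.54 for GBP5, whose hypoxic estimates were -0.37 and -0.24. It was 0.51 for DTX3L, 0.68 for OAS2 and 0.45 for PARP14, whose hypoxic estimates were 0.07, 0.16 and 0.13 and did not pass. GBP4, whose normoxic call was kept in 0 of the leave-outs, had a difference of 0.85. It was higher in hypoxic bright cells (0.49 ± 0.10, adjusted p = 0.00365, limma). ICAM1, at 0.82, the receptor chain IL12RB1, at 0.47, and the GTPases GIMAP8, at 1.10, and GIMAP6, at 0.77, also differed, and the hypoxic estimates of IL12RB1 (0.07) and GIMAP6 (0.19) were above 0 and did not pass. Larger rises in hypoxia gave a difference of 1.21 for ITGB3, 0.76 for NYNRIN and 0.97 for ZBTB20.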

How the results depend on the processing

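The 1003 changed genes (433 higher, 570 lower) became 477 (190 and 287) at an adjusted p under 0.01 and 108 (29 and 79) when tested against a 1.5-fold change. Leaving out 1 library gave 611 to 999 changed genes, 249 to 375 higher and 353 to 669 lower, the fewest changed without dim replicate 1. Without dim replicate 1 and bright replicate 2, the highest in airway epithelium markers, there were 356 (137 and 219). Without those highest in muscle markers (replicate 1 of each), a setting chosen after seeing the data, there were 636 (217 and 419). CLEC12A, which did not pass, then turned to 0.02 under both. For the settings that left out libraries or tightened the threshold, fewer samples or a stricter test are part of the setting, and other causes were not tested. Rescaling by TMM factors, no mean trend, other filters, other pseudocounts and only the 6 normoxic libraries gave 848 to 998. Without genes whose replicates were more than 4-fold apart there were 1071 (445 and 626).

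Once each group's mean was subtracted, the remaining deviations of same-numbered dim and bright libraries correlated at 0.448, 0.0599 and 0.177. The labels do not say what the number marks, so the numbers were not taken to pair the samples. With the replicate block, 917 genes changed (391 higher, 526 lower) over all 12 libraries. With the block on the 6 normoxic libraries 684 changed, 277 higher and 407 lower.

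Of 120 named genes that passed, 87 passed in all 6 leave-outs. Depth limits low genes such as CLEC12A, LCK and KLRC1, where normalized counts under 10 occurred.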

Other observations

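The following genes were chosen after their values were seen. Of 5 GIMAP genes tested, small GTPases of lymphocytes that lie together on chromosome 7, 4 were lower in bright cells. GIMAP7 gave 932, 656 and 758 in dim and 319, 376 and 435 in bright cells (-1.05 ± 0.14, adjusted p = 0.000545), and GIMAP6 fell by 0.57 ± 0.11 (adjusted p = 0.00571). GIMAP2 fell by 0.51 ± 0.13 (adjusted p = 0.0318), a call kept in 1 of the 6 leave-outs. GIMAP1, at 384, 384 and 404 in dim and 343, 299 and 292 in bright cells, did not pass (adjusted p = 0.0758).

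Killer lectin receptor genes did not go one way. KLRC1, an NK cell receptor for HLA-E, had 95, 70 and 64 in dim and 3, 6 and 7 in bright cells (-3.65 ± 0.44, adjusted p = 0.000163), while KLRK1, the activating receptor NKG2D, stayed at 123, 143 and 127 against 113, 110 and 131 and did not pass (adjusted p = 0.796). KLRF2 fell by 1.21 ± 0.25 (adjusted p = 0.0102).

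Several secreted factors were lower in bright cells. The growth factor CSF2 (GM-CSF) gave 225, 182 and 116 in dim and 57, 62 and 45 in bright cells (-1.62 ± 0.26, adjusted p = 0.00158), and the cytokine LIF gave 434, 307 and 285 against 155, 132 and 83 (-1.49 ± 0.24, adjusted p = 0.00164). MMP25, a membrane-anchored matrix protease, fell from 328, 322 and 272 to 39, 57 and 50 (-2.65 ± 0.19, adjusted p = 3.52e-06). On the other side, PTPN6 (SHP-1), a phosphatase that binds inhibitory receptors, rose from 417, 384 and 405 to 1045, 894 and 1038 (1.30 ± 0.24, adjusted p = 0.0046), and DEPTOR, an inhibitor of mTOR, rose from 225, 230 and 169 to 447, 430 and 439 (1.09 ± 0.14, adjusted p = 0.000231).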
